A study of Mus musculus with 4 samples.

Results

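The transcripts described here encode the nuclear-encoded subunits of respiratory complexes III and IV and of ATP synthase, with the electron carrier cytochrome c. They were taken by name from the deposited count table, as protein-coding genes whose symbol begins with Uqcr, with Cox followed by a digit from 4 to 8, or with Atp5, together with Cyc1 and Cycs. This rule found 47 of the 56493 genes in the table, which are 9 of complex III, 19 of complex IV, 18 of ATP synthase and Cycs. No member passed the test between the groups, and the summed levels of 3 of the 4 libraries lay close together, while MCS replicate 1 was the lowest library for 41 of the 45 members that could be tested. Cox4i2, an alternative form of subunit IV, was lower in both CrAT libraries than in both MCS libraries. It was the only such member, against 16.6% of all genes tested. For 6 members both CrAT libraries were higher than both MCS libraries, against 15% of all genes tested. The unadjusted p of Cox4i2 in edgeR's quasi-likelihood test was 0.101, the smallest among the members.

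RNA was sequenced from cells that were sorted by FACS from the retina of wild-type mice and are labelled as retinal ganglion cells. All mice had received an AAV2 vector in the vitreous and, one month afterwards, a crush of the optic nerve. In 2 libraries the vector was AAV2-CrAT, which carries the gene of carnitine acetyltransferase to overexpress it, and in the other 2 it was AAV2-MCS. All 4 titles also carry the tag NCd8, and neither it nor MCS is spelled out in the labels. Neither the promoter that drives the vector, nor the mice's age, nor the interval from crush to sorting is stated there. Setting CrAT beside MCS addresses what the CrAT vector changes in the transcripts of sorted cells after nerve injury, and the enzymes at the end of the respiratory chain are followed here.

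Complex III passes electrons from ubiquinol to cytochrome c and pumps protons across the inner mitochondrial membrane. Cytochrome c carries the electrons to complex IV, cytochrome c oxidase, which reduces oxygen to water and also pumps protons. ATP synthase lets the protons flow back through a rotating ring of c subunits and makes ATP in its F1 head. Photoreceptors pack many mitochondria into their inner segments, and the long axons of ganglion cells also depend on this supply. Some subunits of complex IV exist in alternative forms that are known from heart and skeletal muscle, lung or testis.

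The libraries held 24494253 to 27097438 counts. Levels are given as CPM, counts relative to the library total after TMM scaling, for comparisons between libraries, and as the authors' FPKM, which is also divided by exon length, for comparisons between genes. Wherever a pair of values is given for a group, replicate 1 comes first and replicate 2 follows. No label ties the replicates to separate animals, so a p-value here measures only how these samples scatter, and part of that scatter may be technical. Transcripts of Crat itself were at 72.5 and 49.9 CPM with CrAT and 38.3 and 47.7 CPM with MCS, with a log2 fold change of 0.51 (SE 0.33) that did not pass in edgeR's quasi-likelihood test (adjusted p = 1). Markers of ganglion cells were few beside those of rods. The 10 ganglion cell markers tested summed to 155.4 to 277.7 CPM and the 10 rod markers to 24460 to 46396 CPM, and the ganglion cell factor Pou4f1 had counts of 0 and 20 with CrAT against 1 and 15 with MCS. The values below are those of a bulk sort that held transcripts of several retinal cell types, and fewer cells of a type and less RNA per cell cannot be told apart.

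The subunit genes were abundant. Of the 47 members, 39 had a mean FPKM of at least 40 over the 4 libraries, and 8 lay under 20. Cox8a, the ubiquitous form of the smallest complex IV subunit, had the highest mean, 789 FPKM. It was followed by Atp5b, the catalytic beta subunit of F1, at 692 FPKM. Cox6b1 at 463 FPKM, Cox6a1 at 421 FPKM, Cox4i1 at 396 FPKM and Atp5a1, the alpha subunit of F1, at 388 FPKM came next. Cox8a ranged from 536 to 1008 FPKM and Atp5b from 540 to 760 FPKM, and their order changed between libraries. Atp5b was above Cox6b1 in each library. Complex III lay in a narrower band, from Uqcr10 at 251 FPKM to Uqcrc2 at 103 FPKM, and Cycs was at 49.0 FPKM. Atp5l, the g subunit of the membrane part, had 15.05 FPKM with 6443 bases of summed exons, against 530 to 4912 bases for the other ATP synthase members. The members together took 1.36% and 1.48% of all counts with CrAT, and 0.991% and 1.585% with MCS.

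**Figure D1:**
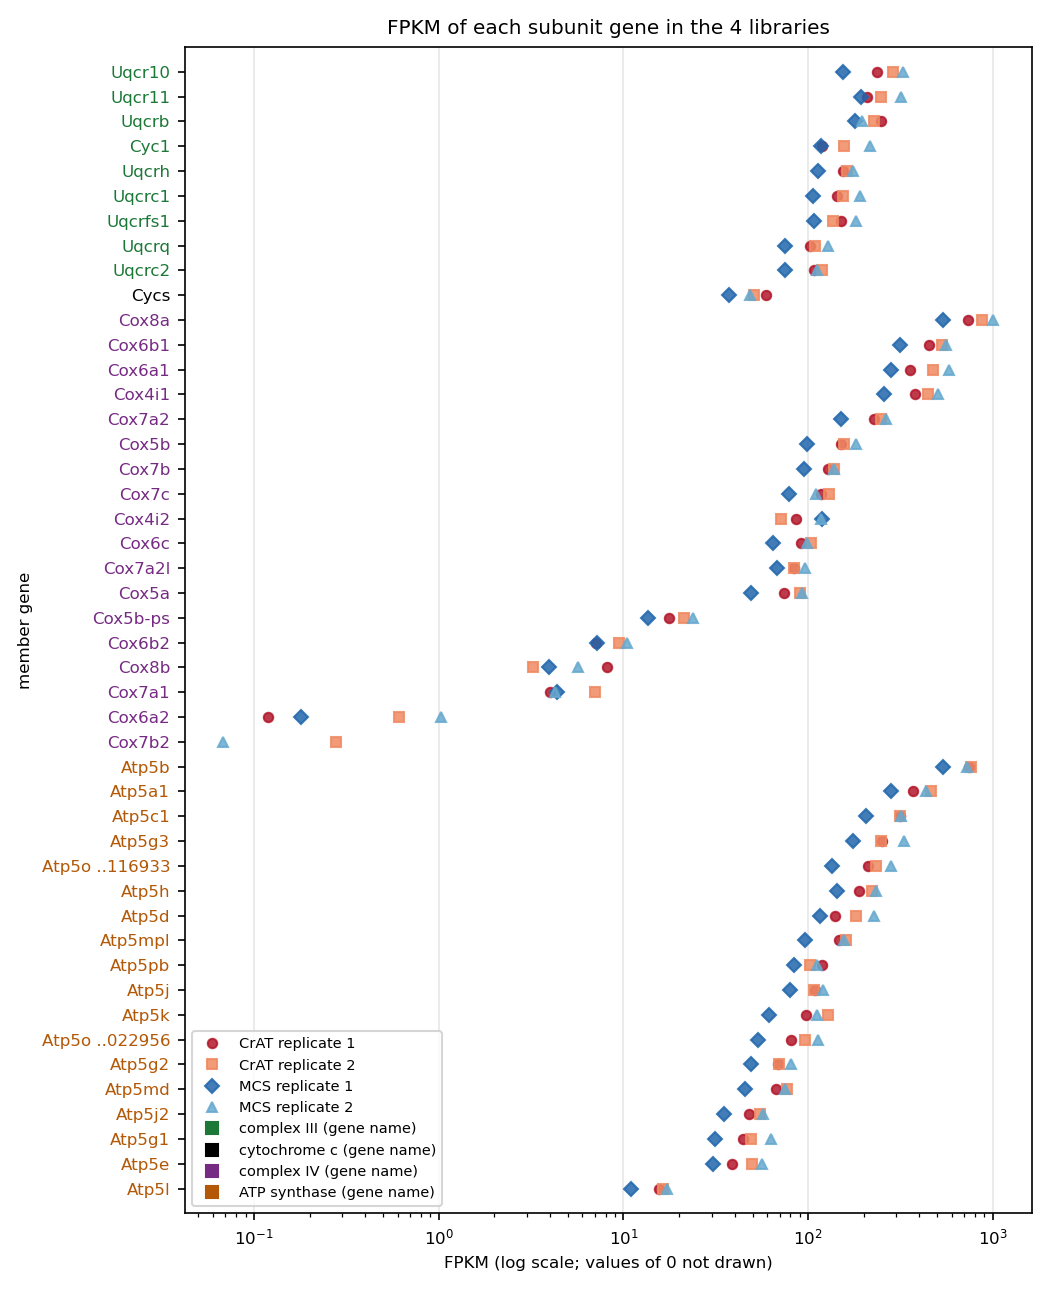
FPKM (horizontal, log scale) of each member gene (vertical, coloured by complex) in the 4 libraries, 1 point per library. The point of MCS replicate 1 lies leftmost for most genes, while Cox4i2 has its lowest points in the CrAT libraries; Cox8c, listed at 0 in every library, is not drawn.

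A few members need care in reading. The symbol Atp5o stands for 2 genes in the table. The gene ENSMUSG00000116933 shares 45.8% of its 530 exon bases with ENSMUSG00000022956, the gene of the OSCP stalk subunit, and 54.2% with the neighbour Donson, so reads of these genes could be split between them and neither value is certain. Cox5b-ps is typed as protein-coding in the table although its name is that of a pseudogene, and it had 9.05 and 10.6 CPM with CrAT and 6.68 and 11.6 CPM with MCS. Exons of 16 members overlap another gene of the table, on the other strand in most cases. The overlap is 12.7% of the exon bases of Atp5j with Gabpa, a transcription factor gene, 19.7% of those of Uqcrc2 with Pdzd9 and 9.94% of those of Cox4i1 with Emc8. The library kit does not mark the strand, so reads in these stretches cannot be assigned.

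No member passed the test between the groups. In edgeR's quasi-likelihood test all 45 tested members had an adjusted p of 1, and none had an unadjusted p under 0.05, the smallest being 0.101. Over all 19638 genes tested 0 passed (0%), and 815 had an unadjusted p under 0.05 (4.15%), of which 251 were higher in CrAT (1.28%) and 564 lower (2.87%). DESeq2 called 55 of 18876 genes with an adjusted p (0.291%), and its smallest unadjusted p for a member was 0.129. The log2 fold change of CrAT over MCS was above 0 for 38 members and below 0 for 7, against 50.6% above 0 over all genes tested. Its median was 0.19 over the members and 0.01 over all genes tested. The standard errors of the members ran from 0.27 to 1.24, and only Atp5k, Atp5mpl, Uqcrb, Uqcrc2, Cox7c, Cycs and Cox4i2 lay more than 1 SE from 0. CrAT exceeded MCS in each pair of libraries for 6 members, where 15% of all genes tested did so, and below them for 1 member, where 16.6% did. In a simulation of this comparison edgeR called 4% of genes changed 2-fold and 76% of genes changed 4-fold. The differences of the members were all below 2-fold, a size that these libraries would seldom let pass.

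**Figure D2:**
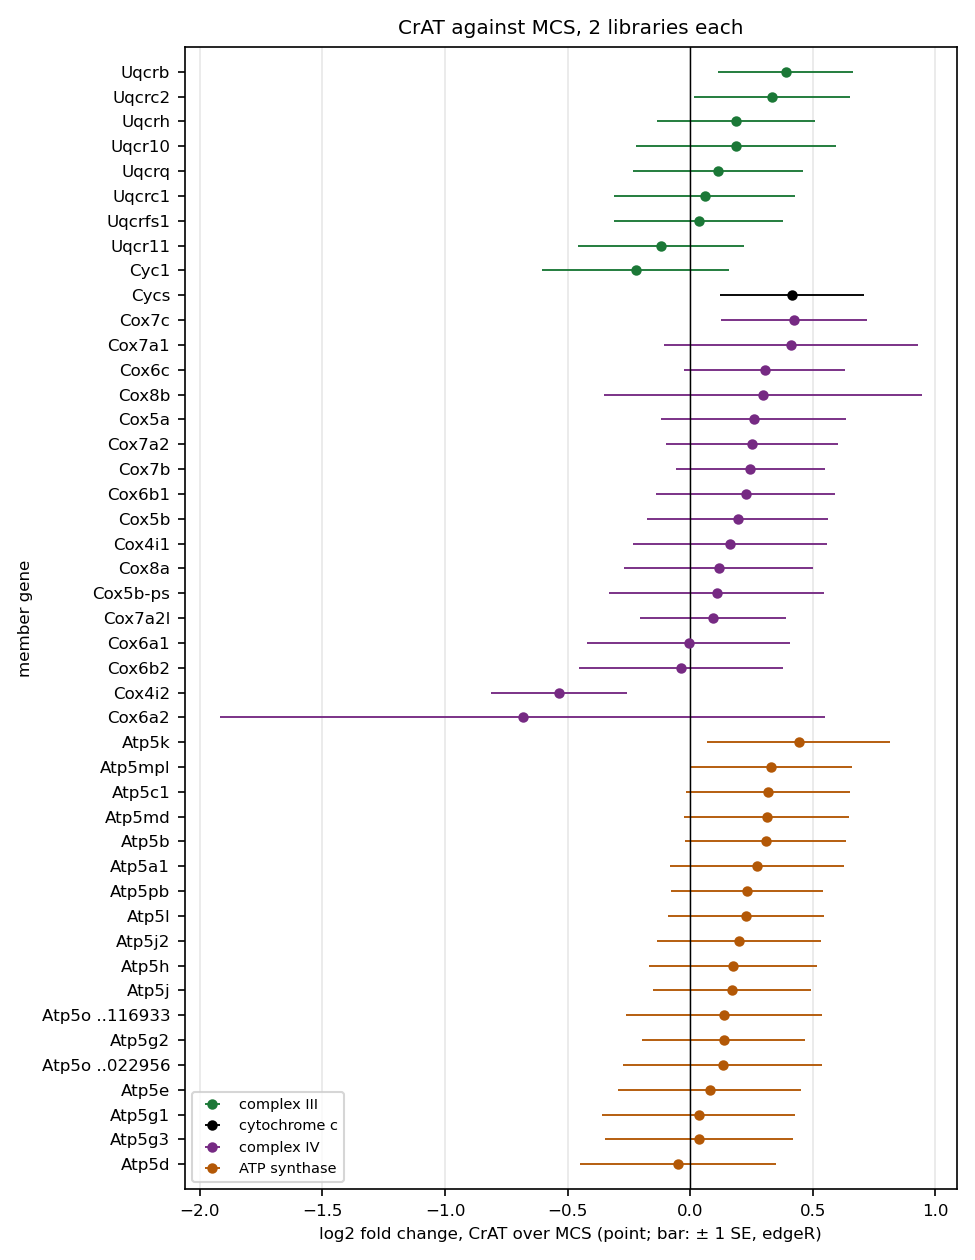
Log2 fold change of CrAT over MCS (horizontal; bars are ± 1 SE from edgeR, 2 libraries in each group) for the 45 tested members (vertical, coloured by complex). Most points lie a little right of 0 with bars that reach or nearly reach it, Cox4i2 lies left of it at -0.53, and Cox6a2 at -0.68 has the widest bar.

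In complex III the 2 core proteins, which face the matrix and are related to processing peptidases, were both lowest in MCS replicate 1. A difference between these 2 genes was not tested. Uqcrc2 was at 281.8 and 305.4 CPM with CrAT and at 187.7 and 278.4 CPM with MCS. The groups did not overlap, but CrAT replicate 1 and MCS replicate 2 were nearly level, and the log2 fold change was 0.33 (SE 0.32, unadjusted p = 0.335 and adjusted p = 1 in edgeR). Uqcrc1 was at 609.3 and 644 CPM with CrAT and at 433.3 and 770.2 CPM with MCS, so that the MCS libraries enclosed the CrAT libraries. Its log2 fold change was 0.06 (SE 0.37).

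Uqcrb, a small subunit on the matrix side that contacts cytochrome b, was the complex III member with the smallest unadjusted p, 0.203 by edgeR (adjusted p = 1). It was at 223.5 and 200.5 CPM with CrAT and at 154.3 and 169.2 CPM with MCS, and the groups did not overlap. The log2 fold change was 0.39 (SE 0.27), and it ran from 0.31 to 0.49 as each library was left out. For the catalytic subunits the groups overlapped. Cyc1, cytochrome c1, was at 264.7 and 339.8 CPM with CrAT and at 250.4 and 454.3 CPM with MCS, with the lowest and the highest library both in MCS and a log2 fold change of -0.22 (SE 0.38, unadjusted p = 0.582 in edgeR). Uqcrfs1, the Rieske iron-sulfur protein, was at 211.7 and 186.3 CPM with CrAT and at 144.8 and 243.7 CPM with MCS, again with the CrAT libraries between the MCS libraries. Uqcrh, the hinge protein that helps cytochrome c1 dock with cytochrome c, was at 197.1 and 203.3 CPM with CrAT and at 137.7 and 213.6 CPM with MCS, and its log2 fold change was 0.19 (SE 0.32, unadjusted p = 0.579 in edgeR). The small subunits Uqcrq, Uqcr10 and Uqcr11 had 0.11, 0.19 and -0.12.

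Cytochrome c itself, Cycs, was at 208.2 and 174.3 CPM with CrAT and at 125.3 and 161.6 CPM with MCS. The CrAT values exceeded the MCS values, by little in the case of CrAT replicate 2 and MCS replicate 2. The log2 fold change was 0.41 (SE 0.30, unadjusted p = 0.207 and adjusted p = 1 in edgeR), and it ran from 0.25 to 0.61 as each library was left out.

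Complex IV has its catalytic core encoded in mitochondrial DNA, and the table held 0 genes of that chromosome, so the members here are the nuclear-encoded subunits around it. Cox7c, a small transmembrane subunit, was at 136.4 and 146.8 CPM with CrAT and at 88.3 and 122.8 CPM with MCS. The groups did not overlap, and the log2 fold change was 0.42 (SE 0.30, unadjusted p = 0.201 and adjusted p = 1 in edgeR). Cox6c, another transmembrane subunit, was at 336.4 and 372.5 CPM against 227.9 and 346.3 CPM, and its groups overlapped (log2 fold change 0.30, SE 0.33, unadjusted p = 0.387 in edgeR). Cox7b, a further transmembrane subunit, was at 159.7 and 168.9 CPM with CrAT and at 113.4 and 163.8 CPM with MCS, a log2 fold change of 0.25 (SE 0.30, unadjusted p = 0.450 in edgeR). Cox5a and Cox5b, the first of which lies in the matrix and the other of which binds zinc, lay at 0.26 (SE 0.38) and 0.19 (SE 0.37) on the log2 scale. Cox8a, the most abundant member by FPKM, was at 471.2 and 546 CPM with CrAT and at 326.6 and 612 CPM with MCS, a log2 fold change of 0.12 (SE 0.38). Cox6a1 was at 256.5 and 333.3 CPM against 194.8 and 397.4 CPM, with a log2 fold change of -0.01 (SE 0.41) that changed sign with the scaling of the libraries.

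Subunit IV, which is the largest nuclear-encoded subunit and takes part in the control of the enzyme by ATP, held the member with the smallest p. Cox4i2, its lung form, which other cells are known to raise when oxygen is low, was at 69.7 and 56.8 CPM with CrAT and at 92.1 and 90.9 CPM with MCS. Both CrAT libraries were low and the MCS libraries were level with each other. Its mean was 63.2 ± 9.15 CPM (SD, n = 2) with CrAT and 91.5 ± 0.898 CPM (SD, n = 2) with MCS. The difference was a log2 fold change of -0.53 (SE 0.28). This was the smallest unadjusted p among the members, 0.101 in edgeR (adjusted p = 1) and 0.0552 with the replicate number as a block. With the block 9.79% of all genes tested had an unadjusted p under 0.05, and Cox4i2 was not among them. It was also the only tested member below 0 in each of the fits without 1 library, where it ran from -0.69 to -0.37. Cox4i1, the ubiquitous form, was at 605.1 and 693 CPM with CrAT and at 395 and 765.1 CPM with MCS, so its groups overlapped (log2 fold change 0.16, SE 0.40).

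Cox4i2 made up 18.5% and 13.9% of the summed FPKM of both forms in CrAT replicates 1 and 2, and 31.5% and 18.9% in MCS replicates 1 and 2. The share was lower in both CrAT libraries than in both MCS libraries, but CrAT replicate 1 and MCS replicate 2 were nearly equal, and the highest share belonged to MCS replicate 1, the library in which Cox4i1 was low. All 9 listed markers of Mueller glia had a negative log2 fold change, like Cox4i2, and none was at 0. Of the 9, 6 were lower in both CrAT libraries than in both MCS libraries (16.6% of all genes tested). The 9 together summed to 8203 and 6381 CPM with CrAT and to 13389 and 11920 CPM with MCS. Without MCS replicate 1, Slc1a3, Aqp4 and Dkk3, 3 of the 9, were above 0, unlike Cox4i2. The median of the 9 was then -0.75 against -0.93 in the fit of all libraries. The part of Mueller glia in the level of Cox4i2 was not tested.

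The other alternative forms of complex IV were rare beside the ubiquitous ones. Cox6a2, a heart and muscle form, had counts of 2 and 11 with CrAT against 3 and 19 with MCS, at most 0.178% of the Cox6a transcripts by FPKM. Its log2 fold change of -0.68 had an SE of 1.24. Cox7a1, the heart and muscle form of subunit VIIa, had 2.22 and 3.81 CPM with CrAT and 2.29 and 2.245 CPM with MCS, which was 1.17% to 2.08% of that subunit. Cox8b, the muscle form of subunit VIII, was at 3.02 and 1.17 CPM with CrAT and at 1.41 and 1.99 CPM with MCS, between 0.367% and 1.09% of its subunit. The ubiquitous Cox6b1 was at 328.2 and 379.2 CPM with CrAT and at 217.9 and 386.9 CPM with MCS, and Cox7a2 at 222.5 and 235.2 CPM against 140.7 and 243.7 CPM, with the same library lowest. Of the testis forms, Cox6b2 was at 7.88 to 11.3 CPM and 1.55% to 2.26% of its subunit. Cox7b2 had 0 and 4 counts in CrAT and 0 and 1 in MCS, and Cox8c had 0 in all 4 libraries, where 3 counts would be 0.111 to 0.122 CPM; these 2 members were filtered out before the test. Such limits cover counting error only, since reads that carry no molecular identifier may come from a shared molecule. Cox7a2l, a relative of Cox7a2 that links complexes III and IV in supercomplexes, was 24.9% to 30.4% of the VIIa transcripts, with a log2 fold change of 0.09 (SE 0.30).

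**Figure D3:**
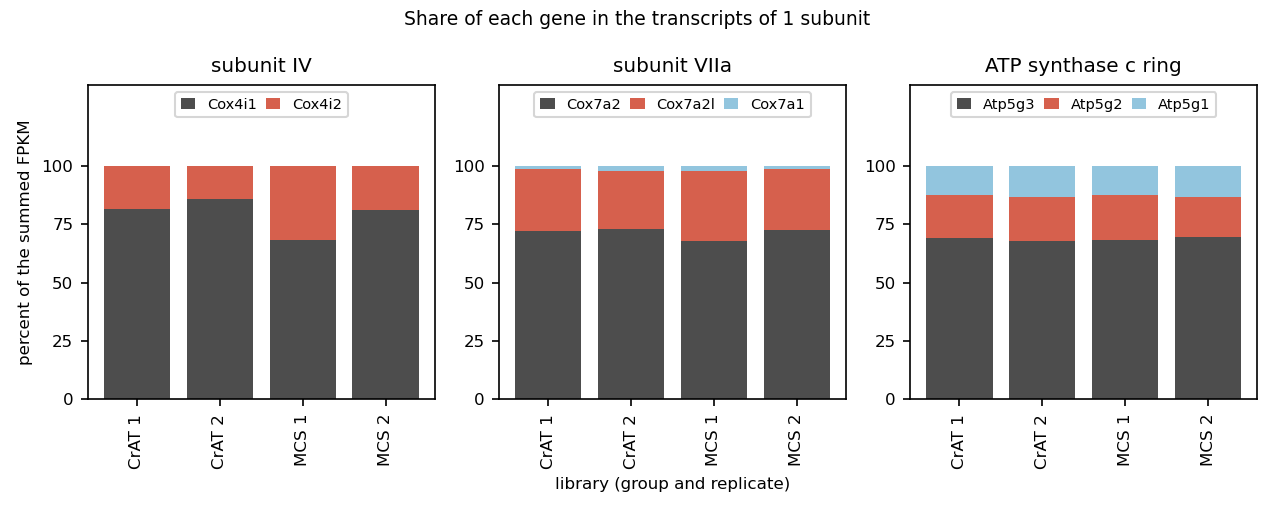
Percent of the summed FPKM (vertical, 0 to 100) that each gene contributes to subunit IV, subunit VIIa and the ATP synthase c ring in each library (horizontal). Cox4i2 varies from 13.9% to 31.5% between libraries, whereas the 3 c-ring genes hold nearly the same shares in all 4.

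ATP synthase had the members with the highest CPM. Atp5b was at 3257 and 3242 CPM with CrAT and at 2254 and 2997 CPM with MCS. The CrAT libraries were level and the MCS libraries were each lower, a log2 fold change of 0.31 (SE 0.33, unadjusted p = 0.382 and adjusted p = 1 in edgeR). Atp5a1, its partner in the hexamer, was at 1202 and 1466 CPM against 862.9 and 1344 CPM, and its groups overlapped. Atp5c1, the gamma subunit that turns inside the hexamer, was at 617.3 and 602.2 CPM with CrAT and at 386.1 and 592.8 CPM with MCS, so that only MCS replicate 1 stood apart (log2 fold change 0.32, SE 0.33, unadjusted p = 0.376 in edgeR). The delta and epsilon subunits of the rotor, Atp5d and Atp5e, lay at -0.05 (SE 0.40) and 0.08 (SE 0.37) on the log2 scale.

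Atp5k, the e subunit that holds ATP synthase dimers together in the membrane, had the smallest unadjusted p of the complex, 0.280 in edgeR (adjusted p = 1). It was at 62.25 and 79.85 CPM with CrAT and at 37.3 and 67.3 CPM with MCS, and the log2 fold change was 0.44 (SE 0.37). MCS replicate 2 lay above CrAT replicate 1, so the groups overlapped. Atp5mpl, a small membrane protein, was at 183.7 and 196.3 CPM with CrAT and at 115.9 and 186.3 CPM with MCS, with MCS replicate 2 level with CrAT. Its log2 fold change was 0.33 (SE 0.33, unadjusted p = 0.354 in edgeR). The small membrane protein Atp5md had 0.31 (SE 0.34), and the f and g subunits Atp5j2 and Atp5l 0.20 (SE 0.33) and 0.23 (SE 0.32). In the stalk that keeps the head from turning, Atp5pb, Atp5h and Atp5j had 0.23, 0.17 and 0.17, and the 2 Atp5o genes 0.14 and 0.13.

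The c ring is known to be built from 1 mature protein that is encoded by Atp5g1, Atp5g2 and Atp5g3. The last 228 coding bases of each gene, stop codon included, are shown because they tell whether reads of the 3 genes can be kept apart. They come from the transcripts ENSMUST00000178611, ENSMUST00000185641 and ENSMUST00000111996 of GENCODE M21 (GRCm38), and capitals mark positions where the genes are not all alike.
Atp5g1: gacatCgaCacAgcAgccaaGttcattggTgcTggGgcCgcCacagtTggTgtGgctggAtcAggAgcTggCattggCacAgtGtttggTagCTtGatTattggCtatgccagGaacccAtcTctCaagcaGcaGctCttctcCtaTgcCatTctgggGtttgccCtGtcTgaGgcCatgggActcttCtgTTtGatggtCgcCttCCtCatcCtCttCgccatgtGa
Atp5g2: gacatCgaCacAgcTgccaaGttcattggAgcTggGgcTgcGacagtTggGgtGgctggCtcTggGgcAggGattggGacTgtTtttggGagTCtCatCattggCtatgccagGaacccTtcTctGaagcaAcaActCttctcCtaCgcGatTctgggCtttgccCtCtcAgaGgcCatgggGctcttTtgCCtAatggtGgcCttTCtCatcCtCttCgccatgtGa
Atp5g3: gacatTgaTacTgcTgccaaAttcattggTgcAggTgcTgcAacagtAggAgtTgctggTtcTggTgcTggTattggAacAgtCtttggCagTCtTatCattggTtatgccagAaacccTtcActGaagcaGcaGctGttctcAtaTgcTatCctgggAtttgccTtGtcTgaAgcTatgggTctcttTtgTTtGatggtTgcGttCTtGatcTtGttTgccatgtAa
Atp5g1 and Atp5g2 differ at 34 of these 228 bases, Atp5g1 and Atp5g3 at 46, and Atp5g2 and Atp5g3 at 49. Of these differences 32, 41 and 44 fall on the last base of a codon. The longest stretch that a pair shares is 21 bases. Before this stretch, where each gene codes for its own import signal, no pair shares a run longer than 11 bases.

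Atp5g3 was the main c-ring gene in every library, with 69.0% and 67.7% of the summed FPKM in CrAT replicates 1 and 2 and 68.5% and 69.7% in MCS replicates 1 and 2. Atp5g2 had 18.8%, 18.9%, 19.2% and 17.0% in the same order, and Atp5g1 12.2%, 13.4%, 12.3% and 13.3%. The shares thus stayed within about the same bounds in both groups while the level did not: Atp5g3 was at 565.2 and 545.1 CPM with CrAT and at 375.1 and 708.8 CPM with MCS. The 3 genes had log2 fold changes of 0.03 (Atp5g1, SE 0.39), 0.14 (Atp5g2, SE 0.33) and 0.03 (Atp5g3, SE 0.38), and those of Atp5g1 and Atp5g3 changed sign when libraries were scaled by their totals only.

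By complex, 7 of 9 members of complex III, 13 of 17 tested members of complex IV and 17 of 18 of ATP synthase had a log2 fold change above 0. The medians were 0.11, 0.19 and 0.19. Summed over its members, complex III was at 2263 and 2411 CPM with CrAT and at 1653 and 2748 CPM with MCS. Complex IV was at 3145 and 3524 CPM against 2169 and 3770 CPM, and ATP synthase at 8455 and 8837 CPM against 5811 and 8878 CPM. MCS replicate 1 was the lowest library in each complex, and MCS replicate 2 was the highest in complexes III and IV. For ATP synthase MCS replicate 2 and CrAT replicate 2 were nearly level, and with DESeq2's size factors their order turned, to 8851 and 8865 CPM. The balance between complexes moved less than their levels. The summed CPM of complex III was 0.719 and 0.684 times that of complex IV in CrAT replicates 1 and 2 and 0.762 and 0.729 times in MCS replicates 1 and 2. Complex IV was 0.372 and 0.399 times ATP synthase in CrAT and 0.373 and 0.425 times in MCS, so the groups overlapped. Complex III was 0.268 and 0.273 times ATP synthase in CrAT and 0.284 and 0.309 times in MCS. Relative to complex IV and to ATP synthase, complex III was thus lower in both CrAT libraries than in both MCS libraries, which was not tested.

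Leaving out libraries showed what the direction rested on. Without MCS replicate 1 the medians turned to -0.25 for complex III, -0.13 for complex IV and -0.10 for ATP synthase, and 31 of 45 members had a log2 fold change below 0. Without MCS replicate 2 they were 0.54, 0.64 and 0.59, and 44 of 45 members were above 0, Cox4i2 being the exception. Without CrAT replicate 1 they were 0.14, 0.22 and 0.24, and without CrAT replicate 2 they were 0.10, 0.13 and 0.15. No gene of the whole table passed in any of these fits, where the lone library of a group is assumed to vary like the others. For 12 members the log2 fold change was above 0 in every one of these fits, and it changed sign for 32. The 12 were Cycs, Uqcrb, Uqcrc2, Cox7c, Cox6c, Cox7b, Atp5k, Atp5mpl, Atp5c1, Atp5md, Atp5b and Atp5pb. Their lowest values over the fits ran from 0.0019 for Atp5md and 0.0066 for Cox7b, both close to 0, to 0.31 for Uqcrb.

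**Figure D4:**
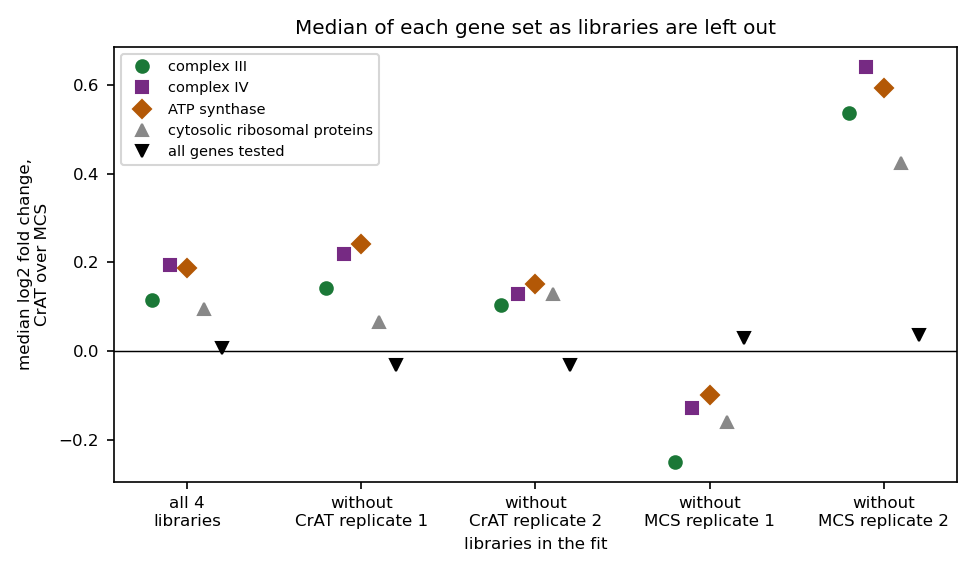
Median log2 fold change of CrAT over MCS (vertical) for 5 gene sets in the fit of all 4 libraries and in each fit without 1 library (horizontal). The medians of the 3 complexes lie below 0 without MCS replicate 1 and between 0.54 and 0.64 without MCS replicate 2, while that of all genes tested stays near 0.

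MCS replicate 1 was the lowest of the 4 libraries for all 18 members of ATP synthase, all 9 of complex III, Cycs and 13 of 17 tested members of complex IV, and over all genes tested it was the lowest for 28.6%. It was the highest library for 1 member, Cox4i2, against 27.3% of all genes tested. The median log2 ratio of MCS replicate 1 to MCS replicate 2 was -0.72 over the members. That of CrAT replicate 1 to CrAT replicate 2 was -0.12. The summed members were at 67.3% of the CrAT mean in MCS replicate 1 and at 107% in MCS replicate 2. Other transcripts stood apart in the same library. Proteins of the cytosolic ribosome, with 76 genes tested, summed to 75.2% of the CrAT mean in MCS replicate 1 and to 111% in MCS replicate 2, and MCS replicate 1 was the lowest library for 72 of them. Nuclear retained RNAs, with 8 genes tested, summed to 493.3 and 549.6 CPM with CrAT and to 1484 and 415.1 CPM with MCS, mostly as Malat1 with 1278 CPM in MCS replicate 1. The part of these differences in the level of the respiratory subunits was not tested. Relative to the ribosomal proteins, the summed members were 1.20 and 1.35 times as high in CrAT replicates 1 and 2 and 1.14 and 1.23 times in MCS replicates 1 and 2.

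**Figure D5:**
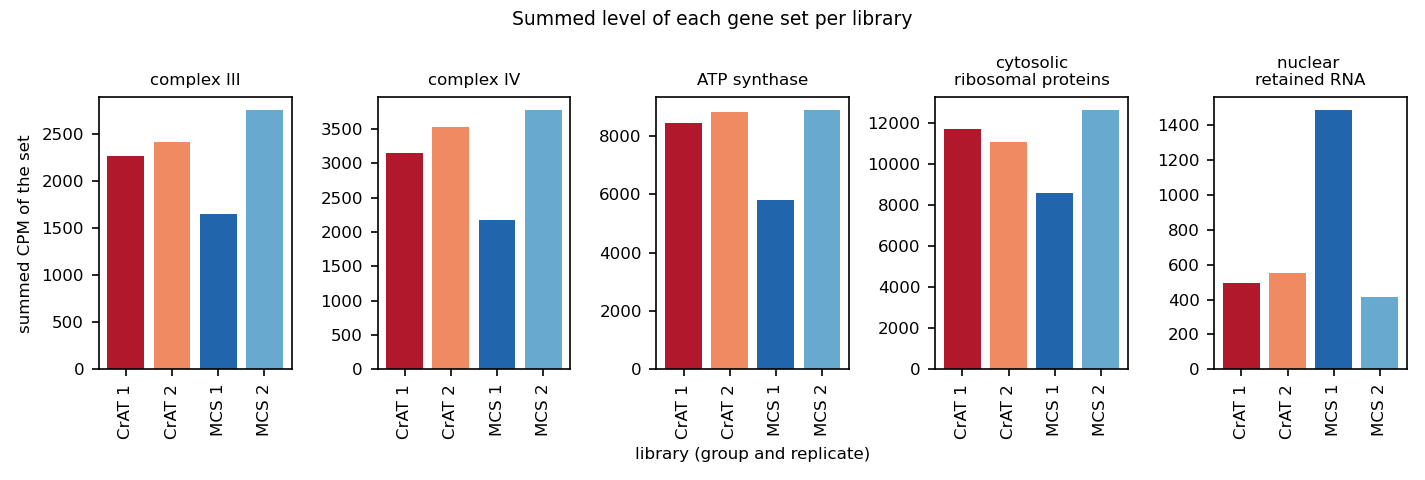
Summed CPM (vertical, from 0, own scale in each panel) of 5 gene sets in the 4 libraries (horizontal), 1 bar per library. MCS replicate 1 has the lowest bar for the 3 complexes and the ribosomal proteins and the highest for the nuclear retained RNAs.

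Rod markers split the libraries another way, with 46396 and 24460 CPM with CrAT and 44753 and 25904 CPM with MCS. The summed members were at 14071 and 14946 CPM with CrAT and at 9758 and 15557 CPM with MCS, in each group lower in replicate 1. Amacrine markers summed to 815.3 and 2192 CPM with CrAT and to 697.1 and 1336 CPM with MCS, with both replicates numbered 2 above both numbered 1. The part of cell composition in the subunit levels was not tested.

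Other genes of the pathway were taken from gene lists, and in all of them the adjusted p in edgeR was 1. Among 9 assembly factors of complex III, 7 had a log2 fold change above 0, with a median of 0.25, and in 6 the CrAT values exceeded the MCS values, as for 15% of all genes tested. The median stayed above 0 without each library in turn, from 0.13 to 0.48. Lyrm7, a chaperone that hands the Rieske protein to the complex, was at 9.34 and 9.165 CPM with CrAT and at 5.11 and 3.55 CPM with MCS. The groups did not overlap, and its log2 fold change was 1.10 (SE 0.425). It was the 1 gene of that list with an unadjusted p under 0.05 (0.0402). Uqcc1, which helps build cytochrome b, was at 162 and 182.3 CPM against 108.5 and 145.2 CPM, and its groups did not overlap either. Of 29 genes for assembly of complex IV and translation of its core, 22 were above 0 and 7 below, with a median of 0.15 and no unadjusted p under 0.05. Without MCS replicate 1 this list had 12 above and 17 below and a median of -0.049. In the fit of all libraries Fastkd2 had 0.77 (SE 0.35) and Cmc2 0.82 (SE 0.41). Ndufa4, a subunit now counted to complex IV, was at 331.5 and 329.5 CPM with CrAT and at 240.8 and 341.8 CPM with MCS. Of 8 genes for ATP synthase assembly and further subunits, 5 were above 0 and 3 below, which became 2 and 6 without MCS replicate 1 and 3 and 5 without CrAT replicate 2. Among them Atpif1, the inhibitor that stops ATP hydrolysis, was at 76.7 and 111.9 CPM with CrAT and at 59.0 and 105.6 CPM with MCS.

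Complex II, which feeds ubiquinol to complex III, had 2 of 4 subunits above 0, and Sdha was at 1026 and 1021 CPM with CrAT and at 718.2 and 685.3 CPM with MCS, a log2 fold change of 0.54 (SE 0.29). The groups did not overlap for Sdha. Without MCS replicate 2 all 4 subunits were above 0, and without MCS replicate 1 the median of the 4 turned from 0.13 to -0.11. The carriers and channels that move ATP, ADP and phosphate had 4 of 6 tested above 0, with 3 of 6 and a median of -0.11 without MCS replicate 1 and 6 of 6 without MCS replicate 2. Genes that shape the cristae had 12 of 13 above 0 with a median of 0.12, which became 7 of 13 and 0.0076 without MCS replicate 1. Immt, the core of the crista junction complex, was at 314.2 and 265.9 CPM with CrAT and at 188.3 and 165.6 CPM with MCS. Its log2 fold change was 0.71 (SE 0.29) with an unadjusted p of 0.0454 in edgeR. Of 12 genes for expression of mitochondrial DNA, 8 were above 0 and 4 below, and without CrAT replicate 1 this became 4 and 8. The DNA polymerase Polg was at 31.5 and 40.5 CPM with CrAT and at 74.4 and 51.5 CPM with MCS.

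Transcription factors and coactivators that are known to drive respiratory genes were listed too, and 4 of 10 were above 0. Without MCS replicate 1 these were 7 of 10, and without CrAT replicate 2 they were 6 of 10. Nrf1 was at 77.1 and 54.7 CPM with CrAT and at 63.9 and 43.9 CPM with MCS, higher in both replicates numbered 1. Gabpa was at 43.6 and 31.6 CPM against 50.4 and 30.8 CPM, in the same order of replicates. Yy1 was at 12.02 and 13.5 CPM with CrAT and at 22.9 and 31.65 CPM with MCS. Its groups did not overlap, and the log2 fold change was -1.10 (SE 0.36) with an unadjusted p of 0.0210 in edgeR. Esrrg was at 167.5 and 144.1 CPM against 116.5 and 82.7 CPM, with a log2 fold change of 0.65 (SE 0.30). None of the 10 had its lowest level in MCS replicate 1, against 28.6% of all genes tested. The part of these factors in the level of the subunits was not tested.

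The promoters of the members were searched for binding motifs of NRF1, GABPA, YY1 and ESRRA. RefSeq promoters (GRCm38.p6, 250 bases before to 50 after each start) were found for 34 members, and a motif was counted on either strand. No promoter was found for Cox4i1, Cox4i2, Cox5b-ps, Cox6a2, Cox6c, Cox8c, Uqcrb, Uqcrc2, Uqcrq, Cyc1, Atp5a1 or Atp5mpl. The motif of NRF1, which is the longest run of capitals in the Cox6a1 and Atp5g2 promoters printed here, was in a promoter of 4 of 34 members (11.8%) and of 1.07% of 27025 genes. CCGGAAG, a motif of GABPA, was in 11 (32.4%), against 9.93% of all genes. AAGATGGC, a motif of YY1, was in 3 (8.82%), against 3.19%, and TCAAGGTCA, a motif of ESRRA, in 1 (2.94%), against 0.466%. A match describes these letters and is not a measured site. One promoter of each complex is printed as an example of these matches, as the 250 bases before the start, in the sense of the gene, with the motif in capitals. That of Cox6a1 is chr5:115348959-115349208, of Atp5g2 chr15:102671048-102671297 and of Uqcrh chr4:116075071-116075320, all on the minus strand of GRCm38.p6.
Cox6a1: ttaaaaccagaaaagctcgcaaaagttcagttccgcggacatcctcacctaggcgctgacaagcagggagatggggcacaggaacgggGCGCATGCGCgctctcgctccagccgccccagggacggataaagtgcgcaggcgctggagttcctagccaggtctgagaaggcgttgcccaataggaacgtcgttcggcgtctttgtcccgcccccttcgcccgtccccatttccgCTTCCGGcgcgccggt
Atp5g2: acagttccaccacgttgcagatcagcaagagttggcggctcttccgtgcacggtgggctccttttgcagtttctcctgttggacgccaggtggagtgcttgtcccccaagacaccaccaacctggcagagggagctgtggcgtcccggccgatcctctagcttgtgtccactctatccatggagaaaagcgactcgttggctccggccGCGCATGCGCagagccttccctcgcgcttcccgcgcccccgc
Uqcrh: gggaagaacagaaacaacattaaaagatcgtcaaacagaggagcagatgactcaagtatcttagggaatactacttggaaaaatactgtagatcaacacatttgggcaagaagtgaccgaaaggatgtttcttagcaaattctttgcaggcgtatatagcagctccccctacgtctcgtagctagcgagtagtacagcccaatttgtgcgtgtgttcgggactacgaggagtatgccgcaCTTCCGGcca
In Cox6a1 the NRF1 motif begins 162 bases before the start and the GABPA motif, on the other strand, 16 bases before it. In Atp5g2 the NRF1 motif begins 42 bases before the start, and in Uqcrh the GABPA motif 10 bases before it. The log2 fold changes of these 3 genes were -0.01, 0.14 and 0.19. All 3 had their lowest level in MCS replicate 1, as did 41 of the 45 tested members. The part of the motifs in these levels was not tested.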

How the data were processed

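RNA sequencing of 4 libraries was analysed, 2 of the CrAT and 2 of the MCS group, with group and replicate number taken from the sample titles. Per the labels' protocols the SMART-seq kit used suits low RNA input; it does not mark strand. The submitters' processing notes name STAR 2.7.2b with GRCm38.p6 and mm10, and no source used here gives the counter's settings. The authors deposited rounded estimated counts per gene. Their FPKM values were multiplied by exon length, with a scale chosen so that the products round to the deposited whole numbers. The gap of at most 0.5 follows from that choice. Of the genes with a count, 41.84% to 43.23% per library had a product more than 0.02 from a whole number. The design had assumed whole counts, and the same test applies. Each table also held columns of other samples, 4 in all, which were not used.

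Genes were kept by edgeR's filterByExpr, which left 19638, and scaled by TMM (factors 0.970 to 1.02). Groups were compared two-sided in R 4.3.3 by the quasi-likelihood F test of edgeR 4.0.16, which fitted group alone and left 2 residual degrees of freedom. The Benjamini-Hochberg adjustment ran over all genes, and 0.05 was the threshold. Common biological variation was 0.404 as a coefficient. DESeq2 1.42.0 was an alternative. No exact permutation p is printed, since the smallest possible for 2 and 2 libraries is 0.333. Members, gene lists and marker lists were chosen with earlier results of these data known. All members are accounted for; fuller statistics are given for members with the smallest p in each complex and for alternative forms of a subunit, and genes of other lists by the smallest p, with Uqcc1, Ndufa4, Atpif1, Nrf1, Gabpa and Malat1 chosen after their values were seen. Alternatives were other scalings, no filter, DESeq2, a replicate block and each library left out. On simulated counts of 18980 genes this comparison called 2 of 50 genes changed 2-fold, 38 of 50 changed 4-fold and 10 of 18780 unchanged genes. Motifs were matched exactly on both strands.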

Additional observations from a re-analysis of the deposited data

How the results depend on the processing

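No gene passed in edgeR with either other scaling, with the replicate block or without any 1 library. Without the filter 2 genes of the table passed and in DESeq2 55, where the smallest adjusted p of a member was 1.00. The median log2 fold change ran from -0.25 to 0.54 for complex III, -0.13 to 0.64 for complex IV and -0.10 to 0.59 for ATP synthase as each library was left out, the lowest without MCS replicate 1 and the highest without MCS replicate 2. It moved by less than the spread between replicates under the other scalings, without the filter, in DESeq2 and with the block, as did the summed level of each complex in every setting. Among members, scaling by library totals turned Atp5g1 to -0.018, Atp5g3 to -0.019 and Uqcrfs1 to -0.019, the block turned Atp5d to 0.018 and Cox6a1 to 0.071, and Cox6a1 was at 0.0037 with DESeq2's size factors and in DESeq2 and at 0.0032 without the filter, all close to 0 in the main comparison as well. The cause was not tested.

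Members whose sign changed when 1 library was left out had these ranges of the log2 fold change over the fits: Atp5a1 -0.0087 to 0.63, Atp5l -0.053 to 0.59, Atp5j2 -0.11 to 0.60, Atp5h -0.13 to 0.57, Atp5j -0.092 to 0.50, Atp5o ENSMUSG00000116933 -0.29 to 0.77, Atp5g2 -0.18 to 0.54, Atp5o ENSMUSG00000022956 -0.30 to 0.77, Atp5e -0.29 to 0.59, Atp5g1 -0.38 to 0.63, Atp5g3 -0.35 to 0.57, Atp5d -0.45 to 0.51, Uqcrh -0.0915 to 0.54, Uqcr10 -0.25 to 0.83, Uqcrq -0.22 to 0.56, Uqcrc1 -0.30 to 0.54, Uqcrfs1 -0.29 to 0.46, Uqcr11 -0.43 to 0.29, Cyc1 -0.59 to 0.28, Cox7a1 -0.012 to 0.75, Cox8b -0.54 to 0.84, Cox5a -0.13 to 0.80, Cox7a2 -0.088 to 0.71, Cox6b1 -0.13 to 0.70, Cox5b -0.18 to 0.70, Cox4i1 -0.24 to 0.72, Cox8a -0.26 to 0.64, Cox5b-ps -0.23 to 0.56, Cox7a2l -0.13 to 0.36, Cox6a1 -0.43 to 0.60, Cox6b2 -0.27 to 0.25, Cox6a2 -2.20 to 1.03. The equal replicate numbers give 2 pairs, and nothing in the labels ties them together. Deviations of same-numbered libraries correlated with r = 0.389 over genes. With the replicate block 1922 genes had an unadjusted p under 0.05 (9.79%) against 815 without it, none passed, and the medians were 0.17 for complex III, 0.24 for complex IV and 0.24 for ATP synthase. With 2 libraries a group, the standard errors were 0.27 to 1.24 among members. In the simulation 4% of genes changed 2-fold were called, and smaller changes were not simulated.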
